A study of Mus musculus with 2 samples.

Results

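Members of the mitochondrial carrier family (Slc25a genes) and of the mitochondrial protein import machinery (Timm and Tomm genes) were compared between arterioles of RBP-J cKO and wild type mouse kidneys. The 61 genes are every symbol of the deposited annotation that begins with Slc25a, Timm or Tomm followed by a digit. They were chosen with earlier results of these data known. They are 42 carriers and 19 import genes, out of 22314 named genes measured. A gene with several probe sets was read from the brightest of them, by the mean of the arrays.

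The study measured total RNA of isolated preglomerular arterioles, the small arteries that feed the glomeruli, on 2 Affymetrix whole-transcript arrays. The RBP-J cKO array held RNA pooled from 4 male mice of genotype RBP-J flox/flox with the R26R ECFP reporter and Ren1d+/cre, in which cre at the renin locus removes RBP-J, the DNA-binding partner of Notch, from cells that make or once made renin. The wild type array held RNA pooled from 3 mice (2 males and 1 female) of genotype RBP-J flox/flox with R26R ECFP and Ren1d+/+, so the controls carried the floxed gene and the reporter too but no cre. All mice were 3 months old and of mixed 129Sv and C57Bl6 strain, and both pools were made from cortex perfused with iron oxide, digested with collagenase and sorted on a magnet.

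The inner membrane of the mitochondrion is closed to most metabolites, and carriers of the Slc25 family exchange nucleotides, phosphate, carboxylates, amino acids, cofactors and iron across it. Nearly all mitochondrial proteins are made in the cytosol. They enter through the TOM complex of the outer membrane, after which the TIM23 complex takes proteins with a presequence into the matrix and inner membrane, and the small TIM chaperones and the TIM22 complex insert carriers. Tubule cells of the kidney are rich in mitochondria and use them to power reabsorption.

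Each genotype had 1 array, so there was no replicate, no standard deviation between samples and no p-value, and precision is limited by the number of arrays. Values are RMA levels on the log2 scale, and differences are RBP-J cKO minus wild type. The targeted gene Rbpj read 9.02 in RBP-J cKO and 9.0 in wild type. Rbpj does not check the labels, since deletion is restricted to renin-lineage cells and the sources used here do not place its probes relative to the floxed part. The renin gene Ren1 read 10.19 in RBP-J cKO and 10.77 in wild type. Acta2 and Myh11, markers of the arteriolar smooth muscle, read 11.36 and 9.37 in RBP-J cKO and 11.21 and 9.53 in wild type, while the proximal tubule marker Slc34a1 read 12.95 in RBP-J cKO and 12.85 in wild type, so both preparations also held tubule RNA.

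The carriers and import genes were mostly higher in RBP-J cKO arterioles, each by a small amount. The floor was set at 7.56, the median of the named probe sets, to be reached on at least 1 array, and 52 of the 61 genes passed it. Of these, 43 were higher in RBP-J cKO (82.7%), against 53.9% of all 11597 genes above the floor, and 9 were lower. Their median difference was 0.18, against 0.02 for all genes. The middle 50% of their differences lay between 0.06 and 0.29, against -0.12 and 0.20 for all genes. Slc25a22, Slc25a27 and Slc25a33 passed the floor through 1 array only. Without a floor 48 of all 61 were higher (78.7%), against 48.4% of all 22314 genes, and with the floor set on the mean of both arrays 42 of 50 (84.0%), against 53.9% of 11231.

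Fewer or more cells of a type cannot be told apart from less or more RNA per cell in these bulk samples.

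No carrier or import gene was far apart between the pools. At 2-fold, 0 of 52 were higher or lower, where 0.854% of all genes were higher and 0.198% lower. At 1.5-fold the counts were again 0 and 0, against backgrounds of 4.10% higher and 1.60% lower. Smaller limits were tried after these counts were seen, first 1.25-fold and then 1.2-fold, and the reading depends on which is taken. At 1.25-fold, 9 of 52 (17.3%) were higher, near the 14.0% of all genes, and 2 of 52 (3.85%) were lower, against 7.58%. At 1.2-fold, 19 of 52 (36.5%) were higher, against 18.6% of all genes, and the same 2, Slc25a37 and Slc25a27, were lower, against 11.0%. With the floor set on the mean of both arrays Slc25a27 drops out and 1 is left. The count differs because 10 genes lie between the limits.

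The authors' dChip values for these arrays gave the same number higher by any amount, 43 of 52, against 54.3% of all genes. With dChip 16 of 52 were at least 1.25-fold higher (30.8%), against 14.4% of all genes, and 19 of 52 at least 1.2-fold higher, against 19.4%. Neither limit was set before the values were seen.

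**Figure D1:**
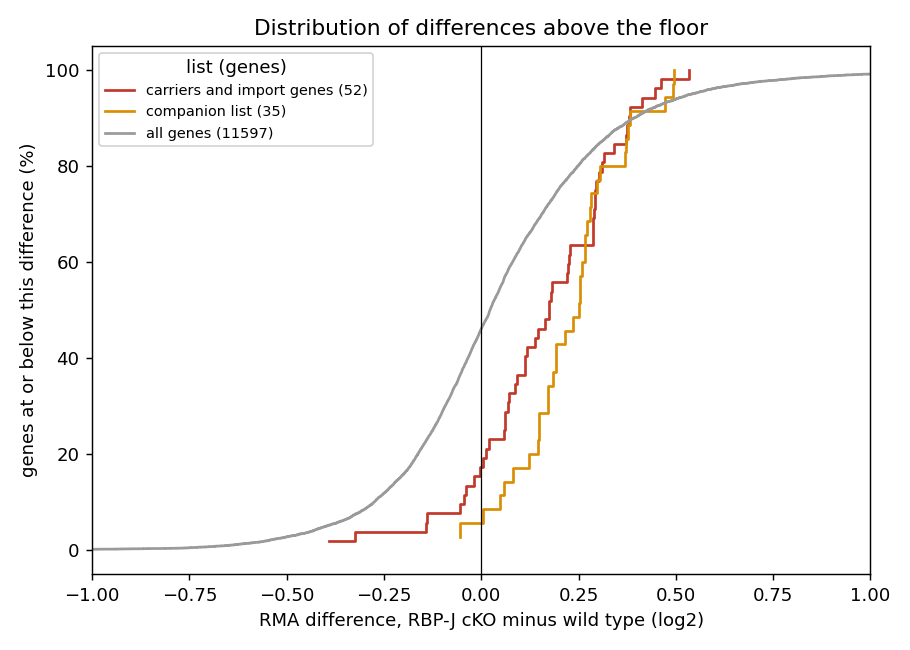
Share of genes (y axis, percent) at or below each RMA difference between RBP-J cKO and wild type (x axis, log2), for the 52 carriers and import genes, for 35 other genes of import, folding and transport (the companion list), and for all 11597 genes above the floor. The curves of both lists lie to the right of the curve of all genes up to about the upper end of their range, and neither list has genes in the outer tails.

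**Figure D2:**
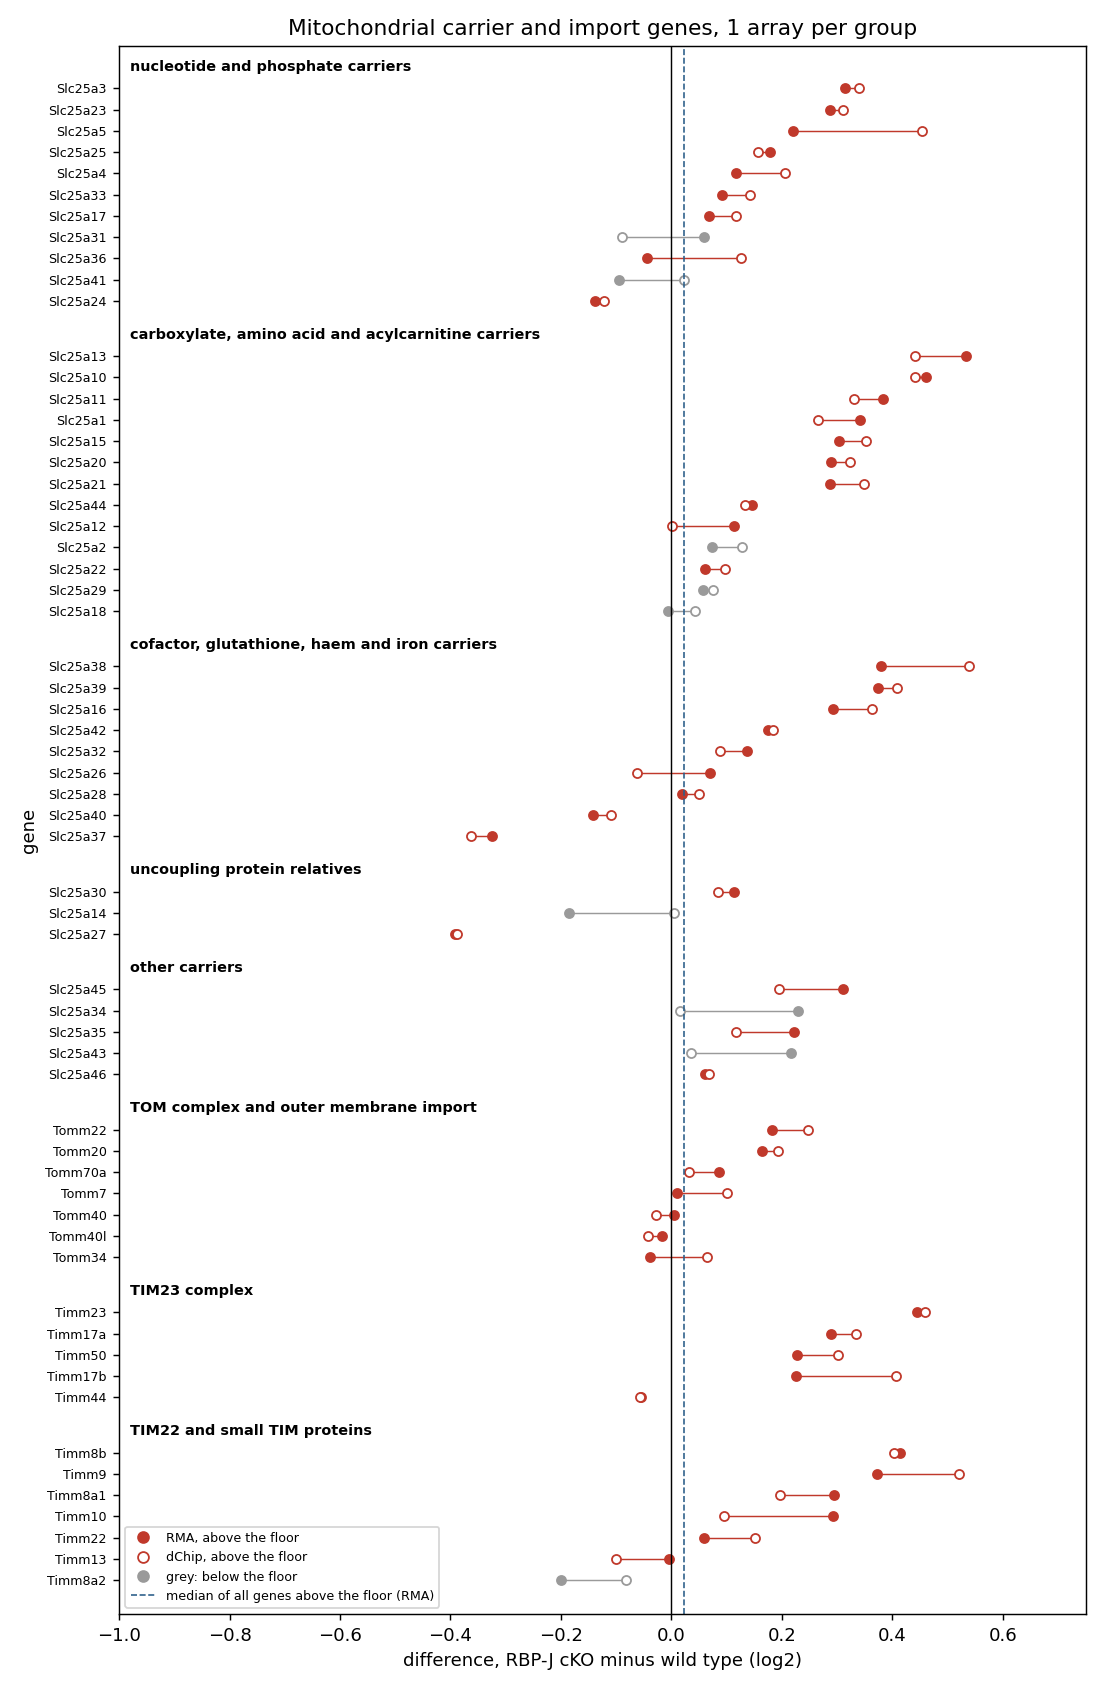
Difference between RBP-J cKO and wild type (x axis, log2) of 60 of the 61 genes, grouped by role. Filled points are RMA values, open points are dChip values, grey marks genes below the floor, and the dashed line is the median of all genes at 0.02. Slc25a13 at 0.53 is the highest and Slc25a27 at -0.39 the lowest RMA value.

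Carriers of carboxylates, amino acids and acylcarnitine shared 1 direction. All 10 above the floor were higher in RBP-J cKO, against 82.7% of the 52 carriers and import genes and 53.9% of all genes. Their median was 0.30 and their range 0.06 to 0.53. The same shares are the background of the other counts by role. The roles were set after the values were seen. Slc25a13, which encodes citrin, an aspartate/glutamate carrier of the malate-aspartate shuttle and the urea cycle, read 9.85 in RBP-J cKO and 9.31 in wild type, a 1.45-fold difference and the largest among these genes. The authors' deposited table gives its signed fold as 1.36, bounded by 1.32 and 1.40. Slc25a10, the dicarboxylate carrier that exchanges malate and succinate for phosphate, read 11.14 in RBP-J cKO and 10.68 in wild type. Both were higher in RBP-J cKO with dChip too, by 0.44 each.

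Slc25a11, the oxoglutarate/malate carrier that completes the malate-aspartate shuttle, read 11.46 in RBP-J cKO and 11.07 in wild type. Slc25a1, the citrate carrier that supplies the cytosol with acetyl units, read 10.28 in RBP-J cKO and 9.94 in wild type. Slc25a15, the ornithine carrier, differed by 0.30, and Slc25a20, which brings acylcarnitines in for fatty acid oxidation, by 0.29. Slc25a21, the carrier of oxoadipate from lysine and tryptophan breakdown, also differed by 0.29. Smaller differences were those of the branched-chain amino acid carrier Slc25a44 at 0.15, of Slc25a12 (aralar), the other aspartate/glutamate carrier, at 0.11, and of the glutamate carrier Slc25a22 at 0.06.

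Carriers of nucleotides and phosphate had a median of 0.12, and 7 of 9 were higher. Slc25a3 carries the phosphate that ATP synthase consumes. It read 11.80 in RBP-J cKO and 11.49 in wild type, a difference of 0.31 (0.34 with dChip, and 0.19 once centred on the trend against level). Slc25a4 and Slc25a5 encode adenine nucleotide translocases, which export ATP in exchange for ADP. Slc25a4 read 10.69 in RBP-J cKO and 10.58 in wild type.

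Slc25a5 was measured by 3 probe sets that share 1 accession, and all were higher in RBP-J cKO. The brightest read 13.06 in RBP-J cKO and 12.84 in wild type, a difference of 0.22. The second read 12.39 in RBP-J cKO and 11.96 in wild type, and the third 10.51 in RBP-J cKO and 10.03 in wild type, differences of 0.44 and 0.48. With dChip the 3 differences were 0.45, 0.44 and 0.40, so the RMA value of the brightest probe set was the smallest of these readings, and the size for Slc25a5 is uncertain. Near-identical copies of this gene may also share its probes.

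The calcium-regulated ATP-Mg/phosphate carriers, which set the adenine nucleotide content of the matrix, did not go one way. Slc25a23 read 9.30 in RBP-J cKO and 9.02 in wild type, and Slc25a25 read 8.94 in RBP-J cKO and 8.76 in wild type. Slc25a24 read 8.90 in RBP-J cKO and 9.04 in wild type, a difference of -0.14 (-0.12 with dChip). The peroxisomal nucleotide and coenzyme A carrier Slc25a17 differed by 0.07. The pyrimidine nucleotide carriers Slc25a33 and Slc25a36 differed by 0.09 and -0.04. Slc25a36 read 10.19 in RBP-J cKO and 10.23 in wild type, and its sign turned with dChip, at 0.13.

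Carriers of cofactors, glutathione, haem precursors and iron ran from -0.33 to 0.38. Their median was 0.16, with 8 of 10 higher. Slc25a38, the carrier that brings glycine in for the first step of haem synthesis, read 9.35 in RBP-J cKO and 8.97 in wild type, a difference of 0.38, and dChip gave 0.54. Slc25a39, which imports glutathione, read 11.49 in RBP-J cKO and 11.11 in wild type. Slc25a16, a relative of coenzyme A carriers, differed by 0.29.

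The lowest of the group was Slc25a37, which encodes the mitoferrin known as the iron carrier of developing red cells. It read 8.97 in RBP-J cKO and 9.29 in wild type, a 1.25-fold difference, and its signed fold in the authors' deposited table was -1.29 with bounds of -1.24 and -1.34. The red cell list (globins, Alas2, Slc4a1 and others) had 4 of 4 genes above the floor higher in RBP-J cKO, against 53.9% of all genes. Its median was 0.40, which became 0.11 over all 8 measured genes without the floor. The alpha globin genes Hba-a1 and Hba-a2 differed by 0.13 and 0.23 and the beta globin gene Hbb-b1 by 0.58, and Slc4a1, at 0.57, is also on the intercalated cell list. The red cell list had a summed dChip intensity over its 8 measured genes of 13030 in RBP-J cKO and 10569 in wild type. No gene of that list was at 0. The part of red cells in the Slc25a37 value was not tested. The second mitoferrin gene, Slc25a28, expressed more widely, read 8.99 in RBP-J cKO and 8.97 in wild type.

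Slc25a40, the relative of Slc25a39, read 8.03 in RBP-J cKO and 8.17 in wild type. Its second probe set was also lower in RBP-J cKO, by 0.07, but lay below the floor on both arrays. The coenzyme A carrier Slc25a42 differed by 0.17 and the folate carrier Slc25a32 by 0.14. The S-adenosylmethionine carrier Slc25a26 differed by 0.07, and by -0.06 with dChip.

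Of the uncoupling protein relatives 2 were above the floor. Slc25a27 (UCP4), best known from brain, read 7.26 in RBP-J cKO and 7.65 in wild type, a difference of -0.39 with both processings. Its RBP-J cKO level lay below the floor, which it passed through the wild type array alone, so its place as the lowest value and as 1 of the 2 genes past the lower fold limits rests on that filter. Slc25a30, the kidney mitochondrial carrier (KMCP1), read 9.99 in RBP-J cKO and 9.87 in wild type. Of the carriers with less defined substrates, Slc25a45 read 9.17 in RBP-J cKO and 8.86 in wild type, Slc25a35 differed by 0.22, and Slc25a46, an outer membrane protein of mitochondrial shape and fission, by 0.06.

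**Figure D3:**
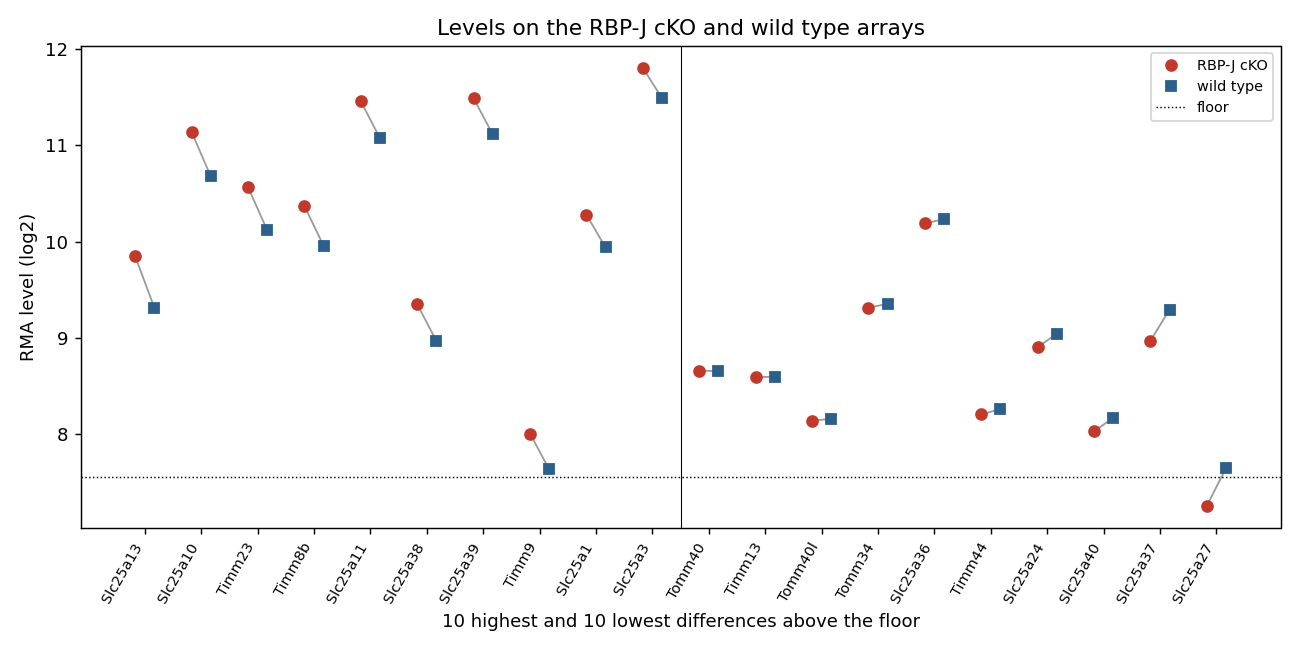
RMA level (y axis, log2) on the RBP-J cKO array (circles) and the wild type array (squares) of the 10 highest (left) and 10 lowest (right) differences among the 52 genes above the floor. The lines join the 2 readings of a gene, and the dotted line is the floor at 7.56. Slopes on the left are steeper than most on the right, where Slc25a37 and Slc25a27 stand out.

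Some related carriers differed unequally. The difference of one gene minus that of its relative was taken for 10 pairs, which were formed after the values had been seen, so their number shows nothing about related genes in general. Slc25a39 exceeded Slc25a40 by 0.52 with RMA and 0.52 with dChip, and by 0.40 once centred on the trend against level. Slc25a13 exceeded Slc25a12 by 0.42 with RMA and 0.44 with dChip. For Slc25a12 the authors' deposited table gives a signed fold of 1.0, bounded by 0.98 and 1.03.

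Slc25a23 exceeded Slc25a24 by 0.42 and 0.43, and Slc25a28 exceeded Slc25a37 by 0.35 and 0.41. In these 4 pairs the contrast was above 0.3 with RMA and with dChip alike. For Slc25a25 over Slc25a24 it was 0.32 with RMA and 0.28 with dChip. In the other 5 pairs it stayed below 0.3 with both, among them Slc25a5 over Slc25a4, Timm8b over Timm8a1 and Tomm40 over Tomm40l. One of these, Timm17a over Timm17b, turned sign with the processing, at 0.06 with RMA and -0.07 with dChip.

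**Figure D4:**
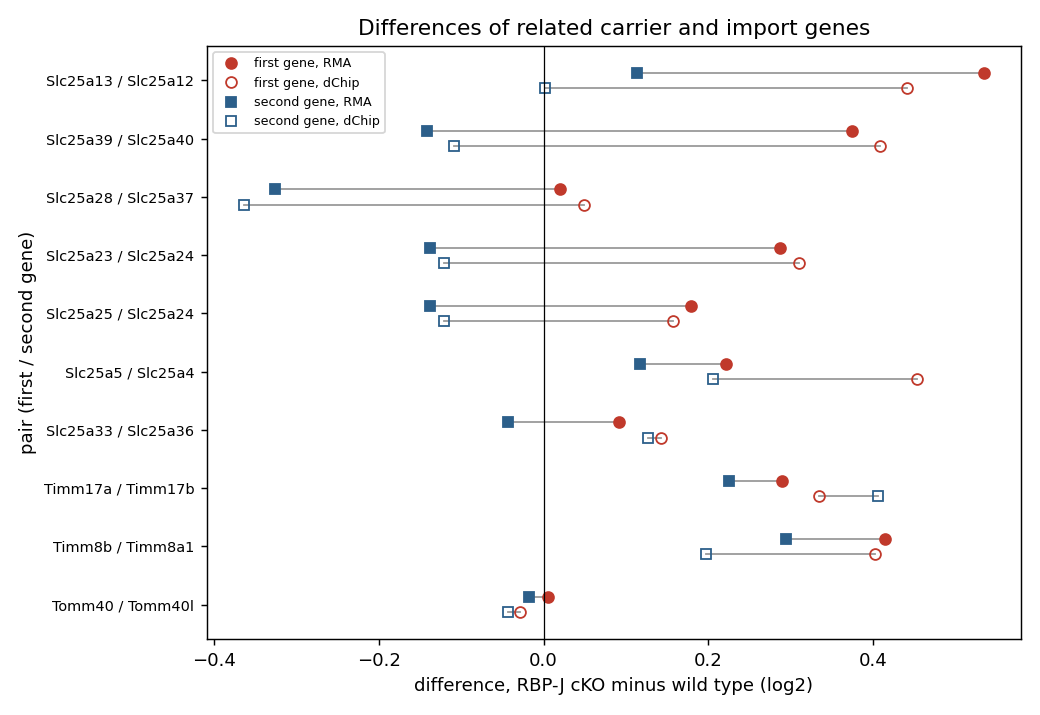
Difference between RBP-J cKO and wild type (x axis, log2) of the first (circles) and second (squares) gene of 10 related pairs, with RMA (filled) and dChip (open). The pairs Slc25a13 and Slc25a12, Slc25a39 and Slc25a40, Slc25a28 and Slc25a37, and Slc25a23 and Slc25a24 stay wide apart with both processings, and the pair Timm17a and Timm17b changes order.

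The import genes as a group had a median of 0.17, with 14 of 18 higher in RBP-J cKO (77.8%), against 53.9% of all genes. The medians of the import steps were not alike. Of the TOM complex and other factors of outer membrane import 5 of 7 were higher, with a median of 0.01, and with dChip the median was 0.06. The receptors that recognise precursors on the surface of the mitochondrion were the highest of these. Tomm22 read 9.33 in RBP-J cKO and 9.15 in wild type, and Tomm20 read 10.16 in RBP-J cKO and 9.997 in wild type. Second probe sets of Tomm22 and Tomm20 were also higher in RBP-J cKO, by 0.16 and 0.26, but that of Tomm22 lay below the floor on both arrays.

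Tomm70a, the receptor for carrier precursors, differed by 0.09. Tomm40, which forms the import pore, read 8.66 on both arrays. Its relative Tomm40l, the small subunit Tomm7 and the cytosolic factor Tomm34 differed by -0.02, 0.01 and -0.04. Tomm40l read 8.14 in RBP-J cKO and 8.16 in wild type, and Tomm34 read 9.31 in RBP-J cKO and 9.35 in wild type. The sign of Tomm34 and of Tomm40 turned with dChip, at 0.06 and -0.03.

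In the TIM23 complex 4 of 5 genes were higher, with a median of 0.23. Timm23, the channel subunit, read 10.57 in RBP-J cKO and 10.12 in wild type, a difference of 0.45. The dChip table holds 4 probe sets of Timm23, which differed by 0.44 to 0.46, although a pair of them carry identical intensities and so are not separate readings. Timm17a and Timm17b, alternative partners of Timm23 in the channel, differed by 0.29 and 0.23. Timm50, the receptor of the complex, differed by 0.23. Timm44, which ties the matrix chaperone motor to the channel, read 8.21 in RBP-J cKO and 8.26 in wild type, lower by 0.06 with both processings.

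Among the TIM22 complex and the small TIM chaperones of the intermembrane space, 5 of 6 were higher, with a median of 0.29, and with dChip the median was 0.17. Timm8b read 10.37 in RBP-J cKO and 9.96 in wild type, and Timm9 read 8.01 in RBP-J cKO and 7.63 in wild type. Timm10, the partner of Timm9 in the chaperone that carries inner membrane proteins, read 7.91 in RBP-J cKO and 7.62 in wild type, a difference of 0.29 that was 0.10 with dChip. Timm8a1, whose human counterpart is mutated in a deafness and dystonia syndrome, differed by 0.29 with RMA and 0.20 with dChip. Its second probe set, below the floor on both arrays, differed by 0.41 with RMA and 0.17 with dChip. Timm22, the insertion channel for carriers, differed by 0.06. Timm13, the partner of the Timm8 proteins, read 8.59 in RBP-J cKO and 8.60 in wild type.

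Promoters were searched for 3 short motifs bound by regulators of nuclear mitochondrial genes, on both strands: GCGCATGC for NRF1, CCGGAAGT for GABPA and TCAAGGTCA for ERRA. RefSeq sequences of the GRCm38.p6 build, from 250 bases before to 50 bases after the gene start, were matched by symbol for 49 of the 61 genes. The GABPA motif stood in 5 of the 49 (10.2%), against 5.69% of 17492 protein-coding genes, the NRF1 motif in 2 (4.08%, against 3.94%) and the ERRA motif in 1 (2.04%, against 0.377%). The 3 genes above the floor with a motif and the highest RMA differences were all of the import machinery. The third place was close, as Timm10 and Slc25a20 both differed by 0.29. With dChip Slc25a20 lay above Timm10, at 0.32 against 0.10. The 3 promoters chosen by RMA are printed here 5′ to 3′ in the direction of the gene, with the motif in capitals. They lie at chr14:32201842-32202141 on the minus strand (Timm23, GABPA motif on the opposite strand), chr9:50603651-50603950 on the plus strand (Timm8b, ERRA motif) and chr2:84826771-84827070 on the plus strand (Timm10, GABPA motif). A match is a description of these letters and not a binding site.
Timm23: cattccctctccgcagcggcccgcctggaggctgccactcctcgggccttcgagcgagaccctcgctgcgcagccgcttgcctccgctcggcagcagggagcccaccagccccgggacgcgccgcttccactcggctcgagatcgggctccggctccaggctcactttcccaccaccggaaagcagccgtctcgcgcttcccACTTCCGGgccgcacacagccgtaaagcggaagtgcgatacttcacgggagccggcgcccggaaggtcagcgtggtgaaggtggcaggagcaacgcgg
Timm8b: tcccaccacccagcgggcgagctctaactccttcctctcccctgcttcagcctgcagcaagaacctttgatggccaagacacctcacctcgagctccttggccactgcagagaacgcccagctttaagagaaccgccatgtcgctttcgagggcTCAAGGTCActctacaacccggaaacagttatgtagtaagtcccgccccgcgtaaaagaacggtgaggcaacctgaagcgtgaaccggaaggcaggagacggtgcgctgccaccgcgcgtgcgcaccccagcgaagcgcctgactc
Timm10: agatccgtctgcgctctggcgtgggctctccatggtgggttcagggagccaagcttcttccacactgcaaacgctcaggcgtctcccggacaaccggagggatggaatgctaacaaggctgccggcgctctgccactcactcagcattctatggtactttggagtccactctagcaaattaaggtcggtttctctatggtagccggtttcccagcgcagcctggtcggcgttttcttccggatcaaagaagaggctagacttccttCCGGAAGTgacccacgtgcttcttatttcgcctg

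The GABPA match of Timm23 begins 48 bases before the annotated start, and the ERRA match of Timm8b 96 bases before it. In Timm10 the match begins 16 bases after the start. The other genes with a match were Slc25a20, Timm8a2 and Tomm70a for GABPA and Slc25a31 and Timm13 for NRF1. Their differences went from -0.20 for Timm8a2 to 0.29 for Slc25a20. Timm8a2 and Slc25a31 were below the floor, where levels say little about direction. Above it, Tomm70a differed by 0.09 and Timm13 by -0.004 (-0.10 with dChip). So few genes do not show whether holders of a motif share a direction. The motifs do not overlap one another in the printed sequences.

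The 9 genes below the floor were Slc25a2, Slc25a14, Slc25a18, Slc25a29, Slc25a31, Slc25a34, Slc25a41, Slc25a43 and Timm8a2. Their differences ran from -0.20 to 0.23, with 5 higher and 4 lower in RBP-J cKO. They include Slc25a31, the adenine nucleotide translocase of germ cells, at 4.97 in RBP-J cKO and 4.91 in wild type. The list of 5 germ cell genes had no member above the floor. Levels this low say little about direction.

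Across the 52 genes above the floor, differences tended to be larger for brighter genes, with a Spearman rho of 0.42, against 0.09 over all 11597 genes. This describes genes that share the same 2 arrays and are not independent replicates. With each difference centred on its trend against level (loess), 41 of 52 were higher (78.8%), against 49.2% of all genes, and the median was 0.14. In the authors' deposited table the bounds of the fold lay wholly above 1 for 40 of the 52 (76.9%), against 43.6% of all genes. They lay wholly below -1 for 6 (11.5%), against 34.7%. The sources used here do not give their confidence level, and they cover the probes of 1 array a group, not animals. None of the 72 probe sets of these genes is among the 326 marked by the authors' comparison filter.

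Other genes of import, processing, folding and transport in mitochondria, a companion list of 45 symbols, were mostly higher too. Of 35 above the floor, 33 were higher in RBP-J cKO (94.3%), against 53.9% of all genes, and 2 lower. The median was 0.25, against 0.02 for all genes. The list was chosen with earlier results of these data known. The highest were Dnajc19, a co-chaperone of the import motor, at 10.06 in RBP-J cKO and 9.56 in wild type, and Chchd4, the oxidoreductase that folds small TIM proteins, at 8.02 in RBP-J cKO and 7.52 in wild type. Chchd4 and Immp2l passed the floor through the RBP-J cKO array alone. With the floor set on the mean of both arrays Chchd4 stays and Immp2l drops out. The median of the 34 genes left was 0.24. The nucleotide exchange factor Grpel2 read 9.66 in RBP-J cKO and 9.19 in wild type, a difference of 0.47 that was 0.25 with dChip. Brp44l (now Mpc1), a subunit of the pyruvate carrier, read 11.51 in RBP-J cKO and 11.13 in wild type.

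At the other end were the acylglycerol kinase gene Agk, whose protein is part of the TIM22 complex in human cells, at 9.05 in RBP-J cKO and 9.11 in wild type, and the uncoupling protein gene Ucp2, at 10.52 in RBP-J cKO and 10.57 in wild type. The cristae gene Chchd6 read 8.58 in RBP-J cKO and 8.57 in wild type, and the inner membrane peptidase gene Immp1l 8.23 in RBP-J cKO and 8.18 in wild type. Ucp2 was higher with dChip, by 0.04. Ucp1, the uncoupling protein of brown fat, was below the floor.

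Markers of several cell types differed too, where 53.9% of all genes above the floor were higher in RBP-J cKO. All 10 proximal tubule markers were higher in RBP-J cKO, with a median of 0.34 and a summed dChip intensity of 51269 in RBP-J cKO and 41218 in wild type. Of the thick limb and distal tubule markers 7 of 8 were higher, with sums of 27249 in RBP-J cKO and 22964 in wild type. Intercalated and principal cell markers were higher in 7 of 8, with sums of 6391 in RBP-J cKO and 4216 in wild type. Nuclear genes of oxidative phosphorylation were higher in 20 of 20, with a median of 0.33, beside 0.18 for the carriers and import genes. After centring on the trend against level these medians were 0.21 and 0.14, and that of the proximal tubule markers was 0.21.

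Macrophage markers were higher in 8 of 8, with sums of 6549 in RBP-J cKO and 3056 in wild type. Of these, Emr1 and Ctss passed the floor through the RBP-J cKO array alone, where they were high. With the floor set on the mean of both arrays 7 were left, with a median of 1.15, against 1.18 for the 8. Endothelial markers were lower in 9 of 9, with sums of 22821 in RBP-J cKO and 31831 in wild type, and podocyte markers in 6 of 6, with sums of 18186 in RBP-J cKO and 21687 in wild type. Smooth muscle markers had a median of -0.07, with sums of 10929 in RBP-J cKO and 10938 in wild type. No marker of these lists was at 0. The part of the cell mix in the higher carrier and import values was not tested.

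Male-biased kidney genes were higher in RBP-J cKO in all 6 measured above the floor, against 53.9% of all genes, with a median of 1.18. Cyp7b1, with the largest difference of the 6, passed the floor through the RBP-J cKO array alone. The RBP-J cKO pool was all male and the wild type pool was not, so sex and genotype cannot be told apart. Slc25a5, Slc25a14, Slc25a43, Timm17b and Timm8a1 are X-linked. Of these, Slc25a14 and Slc25a43 were already below the floor. Without the X-linked genes, 40 of 49 were higher with a median of 0.16. This count does not address the sex difference between the pools, which also applies to genes on other chromosomes. The fat and striated muscle lists each had 1 gene above the floor, Fabp4 at -0.56 and Actc1 at 0.15. Actc1 passed it through the RBP-J cKO array alone, and Ckm, a defining gene of striated muscle, was below the floor on both arrays.

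**Figure D5:**
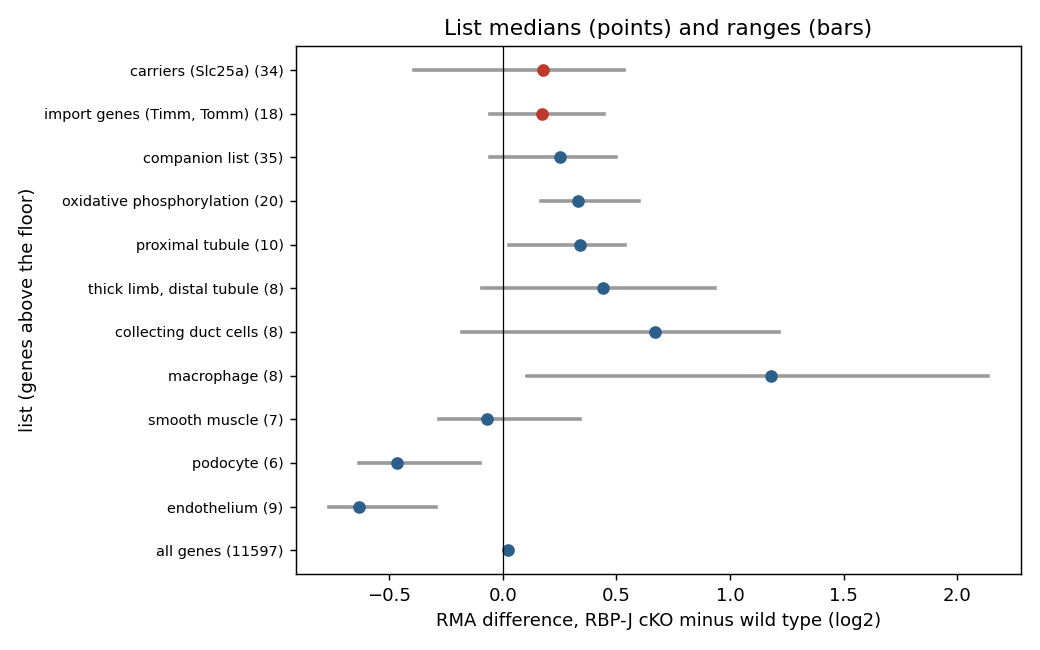
Median (points) and range (bars) of the RMA difference between RBP-J cKO and wild type (x axis, log2) for the carriers, the import genes and the companion list, beside marker lists of cell types and all genes (no range drawn for all genes). Carriers at 0.18 and import genes at 0.17 lie between the smooth muscle median of -0.07 and the proximal tubule median of 0.34.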

How the data were processed

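Total RNA of pooled arterioles was hybridised to 1 array for RBP-J cKO (4 mice) and 1 for wild type (3 mice). The authors deposited log2 values for 34760 probe sets. The submitters' processing notes list RMA, R 2.15.0 and limma 3.12.1 and give no roles. A second deposited table holds dChip intensity values for 35512 probe sets, per the file headers, and the authors' signed fold score (the ratio of RBP-J cKO to wild type, written as a negative number for genes lower in RBP-J cKO) with its bounds. RMA was used as the main processing and dChip as an alternative. Array medians were 7.21 (RBP-J cKO) and 7.25 (wild type) for RMA. The array annotation, genome build and version of dChip were not given in the sources used here.

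Symbols were taken from the dChip table, whose 24612 named probe sets shared with RMA gave 22314 genes. The accessions of 60 of the 61 carriers and import genes led to the same symbol in a RefSeq gene table of GRCm38.p6. With 1 array in each group, no test was run: lists were described by counts and medians beside all genes above the floor, and the counting was tested on simulated data. The genes and lists were chosen with earlier results of these data known, and the roles, the pairs and the 1.25-fold and 1.2-fold limits after the values were seen. The 1.25-fold limit was tried first and both are reported. One carrier is counted in the totals and is not reported here by name. Every other gene was open to naming, with levels for the 10 highest and 10 lowest differences and, for the companion list, the 4 highest and 4 lowest. Levels given for further genes (Slc25a4, Slc25a5, Slc25a23, Slc25a25, Slc25a28, Slc25a30, Slc25a31, Slc25a45, Timm10, Tomm20 and Tomm22) were added after their values were seen. Results were recomputed without the floor, with it raised to the 75th percentile, after centring on the median or on a loess trend, with dChip values, with the mean over probe sets and, added after seeing the data, with the floor on the mean of both arrays. Software was statsmodels 0.14.6 for the loess trend, pandas 2.3.3 and NumPy 2.4.6 under Python 3.11.15, and matplotlib 3.10.9 for figures.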

Additional observations from a re-analysis of the deposited data

How the results depend on the processing

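No paired analysis was possible because each genotype has 1 array. For the same reason no replicate could be left out. A median counted as moved when it shifted by 0.1 or more, a single gene when it shifted by 0.098 or more, the spread between dChip and RMA differences over all genes, and a count when it shifted by over 1.5 times. The median of all carriers and import genes lay between 0.14 (loess) and 0.22 (stricter floor, 33 genes), and the count higher between 40 of 52 (centred on the median) and 43 of 52 among the settings that keep 52 genes. The counts at 1.5-fold and 2-fold were 0 without a floor, with the stricter floor, with both centrings, with dChip, with the mean over probe sets and with the floor set on the mean of both arrays, the last added after seeing the data. With dChip, 16 genes were at least 1.25-fold higher in place of 9. At 1.2-fold the count was 19 and lay between 15 (loess) and 20 (mean over probe sets). With dChip the median of the other carriers was 0.12, of the TIM23 complex 0.33 and of TIM22 and the small TIM proteins 0.17. The stricter floor left 2 TIM23 genes with a median of 0.37, 1 gene lower at 1.25-fold and at 1.2-fold, and Slc25a30 as the single uncoupling protein relative, which turned that group's value to 0.11, against -0.14 over 2 genes. The floor on the mean of both arrays, which leaves Slc25a27 out, gave the same 0.11 and 1 gene lower at both limits. Loess centring brought the proximal tubule median to 0.21 and the oxidative phosphorylation median to 0.21. It also moved Slc25a3 to 0.19, Slc25a39 to 0.26, Slc25a11 to 0.27 and the contrast of Slc25a39 over Slc25a40 to 0.40. With dChip, Slc25a38 moved to 0.54, Timm9 to 0.52, Slc25a36 to 0.13 and Tomm34 to 0.06. Contrasts moved with dChip were Slc25a5 over Slc25a4 (0.25, and 0.26 with the mean over probe sets), Slc25a33 over Slc25a36 (0.02) and Timm17a over Timm17b (-0.07). Signal over background limits Slc25a27, Slc25a22, Slc25a33, Timm10 and Timm9, which lie near the floor.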
